A study of Mus musculus with 6 samples.

Results

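The 10 genes described here are the beta-tubulins Tubb3, Tubb6, Tubb2a, Tubb2b, Tubb4b and Tubb5 and the alpha-tubulins Tuba1a, Tuba1b, Tuba1c and Tuba4a, out of 12894 genes in the deposited table. They were chosen by name, with their values in the comparison of labelled knockouts and controls already known, so their levels are given as a description and without a test. The epidermis came from newborn C57BL/6 mice (postnatal day 0) and was separated from the dermis before bulk RNA sequencing. There were 3 libraries labelled Hnrnpu knockout, made with a loxP-Cre system whose driver the labels do not name, and 3 libraries labelled control. Control 1 has the genotype label wild type, and controls 2 and 3 were "Heterogenous", read here as heterozygous, so that 2 of the controls may carry a deleted copy. Each title has its own number, taken here as that of a separate animal.

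Microtubules are hollow polymers of paired alpha- and beta-tubulin subunits, and mammals encode several isotypes of each subunit in separate genes. The isotypes are nearly alike over most of their length and differ mainly in the acidic tail at the carboxy end, which projects from the polymer and is where enzymes add or remove glutamate and tyrosine. In the epidermis, microtubules form the spindle of dividing basal cells and, in differentiating keratinocytes, arrays that lie along the cell cortex instead of radiating from a centrosome. The isotype Tubb3 is best known as a marker of neurons.

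The libraries held an estimated 6460000 to 9120000 assigned reads, and the values are normalized counts per gene. For Hnrnpu itself the mean was 1314 ± 266 normalized counts in labelled knockouts and 1309 ± 145 in controls (SD, n = 3 each). Its count did not separate the groups, and a count over the whole gene does not show whether one part was deleted. Labelled knockouts 2 and 3 had 5656 and 4758 normalized counts of Xist and 0 of the Y-linked gene Ddx3y. Labelled knockout 1 had 1.87 of Xist and 323 of Ddx3y, and the controls 0 to 3.27 of Xist and 544 to 646 of Ddx3y. By these genes labelled knockouts 2 and 3 read as female, and labelled knockout 1 and all controls as male. Sex is thus partly confounded with group in every comparison below, and cannot be told apart from the knockout label in labelled knockouts 2 and 3. The tissue label was met by its markers, the keratins Krt1 and Krt10. Krt1 stood at 199681 to 352515 normalized counts in labelled knockouts and at 291616 to 304552 in controls. Krt10 stood at 159412 to 258828 in labelled knockouts, below every control at 263804 to 291291. Its log2 difference of −0.46 ± 0.28 did not pass the threshold (limma adjusted p = 0.219). In bulk tissue, fewer cells of a type and less RNA per cell cannot be told apart.

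The coding ends of the isotypes printed here show what distinguishes them. The last 60 coding bases, stop codon included, are printed 5′ to 3′ from the GENCODE M21 transcripts (GRCm38), with the last codon before the stop in capitals.
Tubb3: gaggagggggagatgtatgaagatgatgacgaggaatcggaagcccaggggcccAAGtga
Tubb2a: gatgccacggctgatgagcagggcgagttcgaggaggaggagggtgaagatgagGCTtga
Tubb2b: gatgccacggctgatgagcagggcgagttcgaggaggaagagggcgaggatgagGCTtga
Tubb4b: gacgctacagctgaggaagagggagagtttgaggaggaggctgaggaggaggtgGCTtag
Tubb5: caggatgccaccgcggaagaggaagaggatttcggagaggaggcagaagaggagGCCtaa
Tuba1c: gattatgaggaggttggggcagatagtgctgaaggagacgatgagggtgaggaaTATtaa
Tuba4a: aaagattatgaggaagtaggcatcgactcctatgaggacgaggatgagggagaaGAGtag
Tubb3 ended in a lysine codon, where the other beta-tubulins shown ended in an alanine codon. Tuba1c ended in a tyrosine codon, the residue that is removed and put back in the detyrosination cycle, while Tuba4a ended in a glutamate codon and so encodes no terminal tyrosine.

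The same transcripts show how well reads can tell the genes apart. None of the 50-base windows of the Tubb3 and Tubb6 transcripts (0.0%) occurred in an annotated transcript of another gene, and 0.1% of those of Tubb5 did. The coding sequence of Tubb3 was 81.2 to 83.4% identical to those of Tubb2a, Tubb2b, Tubb4b and Tubb5. Tubb2a and Tubb2b, whose coding sequences were 96.5% identical, shared 49.6% and 39.3% of their windows with other genes. Tubb4b shared 55.5%, mostly with the pseudogene Tubb4b-ps1. Among the alpha-tubulins, Tuba1a, Tuba1b and Tuba1c shared 75.5%, 83.1% and 61.0% of their windows, and the coding sequences of Tuba1a and Tuba1b were 98.3% identical. Tuba4a shared 48.8%, mostly with the overlapping gene Stk16. How shared reads were assigned is not given in the sources used here, so the split within these groups of genes is uncertain, while Tubb3, Tubb6 and Tubb5 can hold few reads of an annotated relative.

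Tubb3, the class III beta-tubulin of neurons, was the isotype with the largest difference. It had 721, 868 and 841 normalized counts in labelled knockouts 1 to 3, against 21.1, 10.6 and 13.9 in controls 1 to 3. The lowest labelled knockout stood 34.1 times above the highest control, and the labelled knockouts differed from each other by at most 1.2 times. The mean was 810 ± 78.3 normalized counts in labelled knockouts and 15.2 ± 5.38 in controls (SD, n = 3 each), a log2 difference of 5.69 ± 0.27 (SE). That difference ranked at position 51 from the highest among 12872 genes. In estimated reads, Tubb3 had 771, 510 and 758 in the labelled knockouts and 28, 12 and 17 in controls, so the control level rests on few reads. Labelled knockout 1, the only labelled knockout with Y-linked transcripts, gave 5.53 by itself.

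Tubb6, the class V beta-tubulin, followed with 512, 1159 and 335 normalized counts in labelled knockouts 1 to 3, against 103, 116 and 69.5 in controls 1 to 3. The groups did not overlap, but unlike Tubb3 it varied among labelled knockouts by 3.46 times, with labelled knockout 2 on top. Its log2 difference was 2.62 ± 0.42, and 2.13 without labelled knockout 2.

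**Figure D1:**
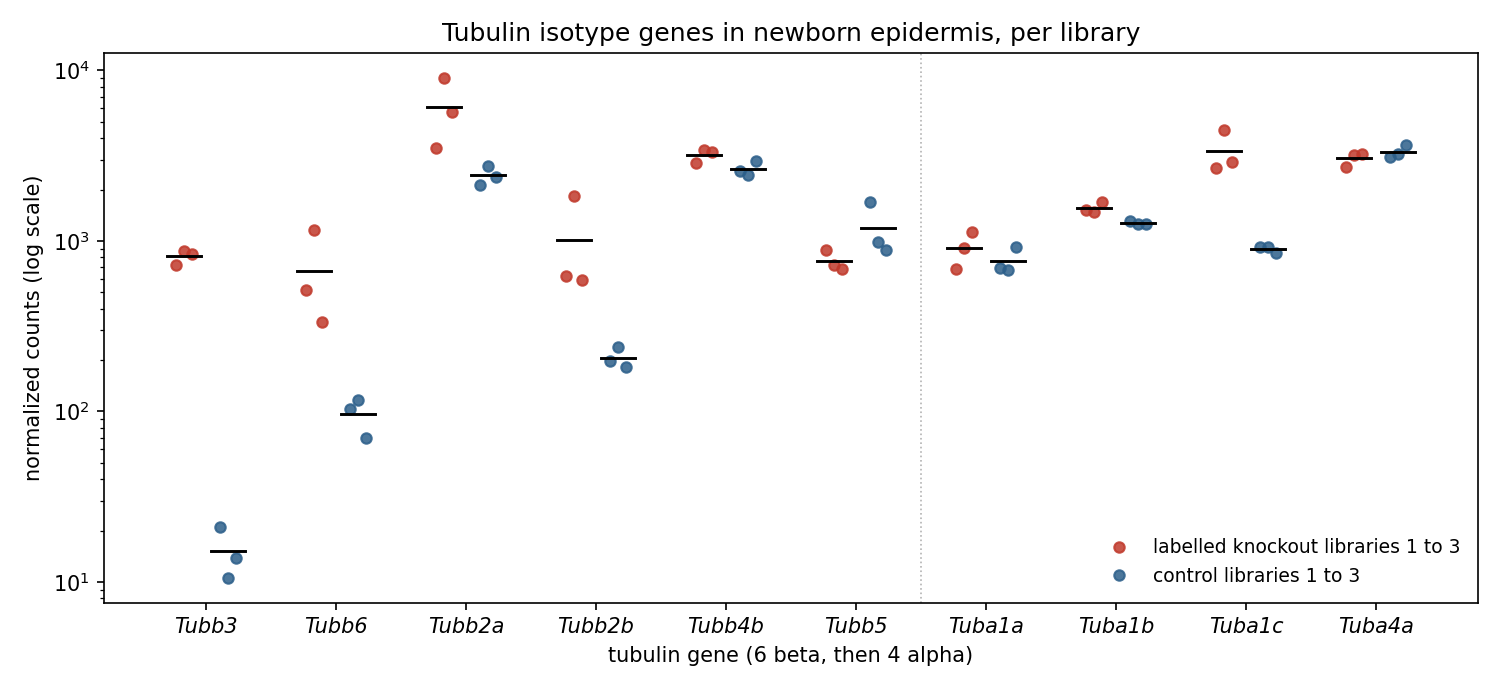
Normalized counts (log scale) of the 10 tubulin genes, one point per library, labelled knockouts 1 to 3 in red left of controls 1 to 3 in blue, with a black bar at each mean. Tubb3 stands at 721 to 868 in labelled knockouts and at 10.6 to 21.1 in controls, while Tubb4b, Tuba1a and Tuba4a overlap between the groups.

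The class II beta-tubulins Tubb2a and Tubb2b, neighbours on chromosome 13, were both higher in the labelled knockouts. Tubb2a had 3517, 9023 and 5674 normalized counts in labelled knockouts 1 to 3, against 2129, 2753 and 2377 in controls 1 to 3. Tubb2b had 620, 1841 and 591 in labelled knockouts 1 to 3, against 198, 239 and 182 in controls 1 to 3. Neither gene overlapped between the groups, and labelled knockout 2 was the highest library for both. The log2 difference was 1.23 ± 0.32 for Tubb2a and 2.09 ± 0.41 for Tubb2b, and 0.89 and 1.56 without labelled knockout 2. For Tubb2a, labelled knockout 1 gave 0.55 by itself, so its size rests on labelled knockouts 2 and 3. The pseudogene Tubb2a-ps2, which shares windows with both, had 44, 130 and 26.7 normalized counts in labelled knockouts and 12.9, 18.7 and 7.39 in controls.

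Tubb4b, the broadly expressed class IV isotype, had 2849, 3406 and 3315 normalized counts in labelled knockouts 1 to 3, against 2582, 2427 and 2958 in controls 1 to 3. The groups overlapped, and the log2 difference of 0.26 ± 0.17 turned to −0.08 with library totals set equal and to −0.20 with quantile normalization. Tubb5, the class I beta-tubulin of most dividing cells, was the only beta isotype with a lower mean. It had 888, 723 and 684 normalized counts in labelled knockouts 1 to 3, against 1684, 984 and 880 in controls 1 to 3, with control 1, the wild type, well above the rest. The groups overlapped, as labelled knockout 1 lay above control 3. The log2 difference was −0.58 ± 0.26, and −0.29 without control 1.

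Markers of dividing cells were read beside Tubb5. The summed level of 8 of 8 listed cycling genes was 441, 112 and 282 normalized counts in labelled knockouts 1 to 3, against 1934, 950 and 681 in controls 1 to 3. As for Tubb5, control 1 was the highest library and labelled knockout 1 the highest of its group. Most of that sum came from Mki67 and Top2a. Of these 8 genes, 4 were lower (limma, Benjamini-Hochberg adjusted p of 0.05) and 4 did not pass. The share lower was 50%, against 15.9% of all genes. The proliferation marker Mki67 was lower, with a log2 difference of −2.38 ± 0.58 (limma adjusted p = 0.0159). The number lower was 1 without control 1, 2 without control 2 or labelled knockout 2, 6 with a replicate block that pairs libraries of adjacent title numbers, and 0 with labelled knockout 1 alone. The part of dividing cells in the level of Tubb5 was not tested.

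Among the alpha-tubulins, Tuba1c differed most. It had 2663, 4495 and 2898 normalized counts in labelled knockouts 1 to 3, against 926, 921 and 851 in controls 1 to 3. Every labelled knockout stood at least 2.88 times above every control, and the controls differed by at most 1.09 times. The log2 difference was 1.86 ± 0.22, and 1.63 without labelled knockout 2. Its relatives Tuba1a and Tuba1b, which lie beside it on chromosome 15, differed little. Tuba1b, a widely expressed alpha-tubulin, had 1510, 1484 and 1695 normalized counts in labelled knockouts and 1305, 1256 and 1248 in controls, which did not overlap (log2 difference 0.30 ± 0.15). Tuba1a, the main alpha-tubulin of growing neurons, had 682, 906 and 1128 in labelled knockouts and 691, 676 and 921 in controls, which overlapped (log2 difference 0.23 ± 0.23). With library totals set equal, the differences of Tuba1b and Tuba1a turned to −0.04 and −0.11, and labelled knockout 1 by itself gave −0.15 for Tuba1a.

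Tuba4a, the alpha-tubulin without a terminal tyrosine codon, had 2716, 3181 and 3234 normalized counts in labelled knockouts 1 to 3, against 3090, 3237 and 3645 in controls 1 to 3. The groups overlapped, with a log2 difference of −0.13 ± 0.17, or −0.47 with library totals set equal and −0.57 with quantile normalization.

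Of the 10 genes, all passed the filter on low values, and 6 had all labelled knockouts above all controls, as did 25.8% of all genes tested. In the fit across all genes (limma, Benjamini-Hochberg adjusted p under 0.05), Tubb3, Tubb6, Tubb2a, Tubb2b and Tuba1c passed as higher, 5 of 10, and 0 passed as lower. Over all genes tested, 33.6% passed, 17.7% higher and 15.9% lower. Since the genes were chosen on this same comparison, these counts only describe them. The median log2 difference was 0.76 over the 10 genes and −0.02 over all genes tested. The number past the threshold was 4 without control 1 or control 3 and with labelled knockout 1 alone, where Tubb2a dropped out. Tubb5 passed as lower with the replicate block, Tubb5 and Tuba4a with library totals set equal, and Tuba4a with quantile normalization.

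Dividing by transcript length gives only a rough comparison of isotypes, because it does not correct for reads from windows shared with other genes. The order given here and the shares that follow carry that limit. In labelled knockouts the order by normalized counts per kilobase was Tubb2a at 3771 ± 1723, Tubb4b at 1996 ± 187, Tuba1c at 1691 ± 503, Tuba4a at 1072 ± 100 and Tuba1b at 897 ± 66.1 (SD, n = 3). Below them came Tuba1a at 502 ± 124, Tubb2b at 466 ± 327, Tubb3 at 433 ± 41.9, Tubb6 at 380 ± 247 and Tubb5 at 289 ± 40.8. The ranges of Tubb4b and Tuba1c overlapped, as did those of Tuba4a and Tuba1b, and those of Tuba1a, Tubb2b, Tubb3 and Tubb6. Tubb2a overlapped Tuba1c, at 2185 against 2268 at their nearest, and Tubb5 overlapped Tubb2b and Tubb6. In controls the order was Tubb4b at 1662 ± 171, Tubb2a at 1503 ± 195, Tuba4a at 1170 ± 101, Tuba1b at 729 ± 17.7, Tuba1c at 454 ± 21.1, Tubb5 at 446 ± 165 and Tuba1a at 423 ± 76.2 (SD, n = 3). Tubb2b at 94.5 ± 13.6, Tubb6 at 54.8 ± 13.7 and Tubb3 at 8.15 ± 2.88 stood far below. The ranges of Tubb4b and Tubb2a overlapped there, as did those of Tuba1c, Tubb5 and Tuba1a. Tubb3 thus had a level like those of Tuba1a and Tubb2b in labelled knockouts and was last of the 10 genes in controls.

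As a share of the summed counts per kilobase of the 6 beta-tubulins, Tubb3 made up 7.33, 4.66 and 6.65% in labelled knockouts 1 to 3, against 0.303, 0.15 and 0.196% in controls 1 to 3. Tubb2a held 49.9 ± 7.57% in labelled knockouts and 39.9 ± 4.97% in controls, with ranges that overlapped. Tubb6 averaged 4.98 ± 1.95% in labelled knockouts and 1.45 ± 0.366% in controls. Tubb2b averaged 5.95 ± 2.28% in labelled knockouts and 2.51 ± 0.357% in controls. Tubb4b and Tubb5 had lower mean shares, while the ratio of mean levels, labelled knockout over control, was 1.2 for Tubb4b and 0.647 for Tubb5. Tubb4b averaged 28.6 ± 6.49% in labelled knockouts and 44.1 ± 4.4% in controls, and Tubb5 4.31 ± 1.86% in labelled knockouts and 11.9 ± 4.49% in controls (SD, n = 3 each). The summed beta-tubulin level per kilobase was 5264, 9976 and 6768 in labelled knockouts and 3735, 3781 and 3790 in controls. Among 5 alpha-tubulins, with Tuba8 added to the 4, Tuba1c held 34.5 ± 5.84% in labelled knockouts and 13.3 ± 1.55% in controls, and Tuba4a 22.2 ± 1.80% in labelled knockouts and 34.0 ± 0.441% in controls.

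**Figure D2:**
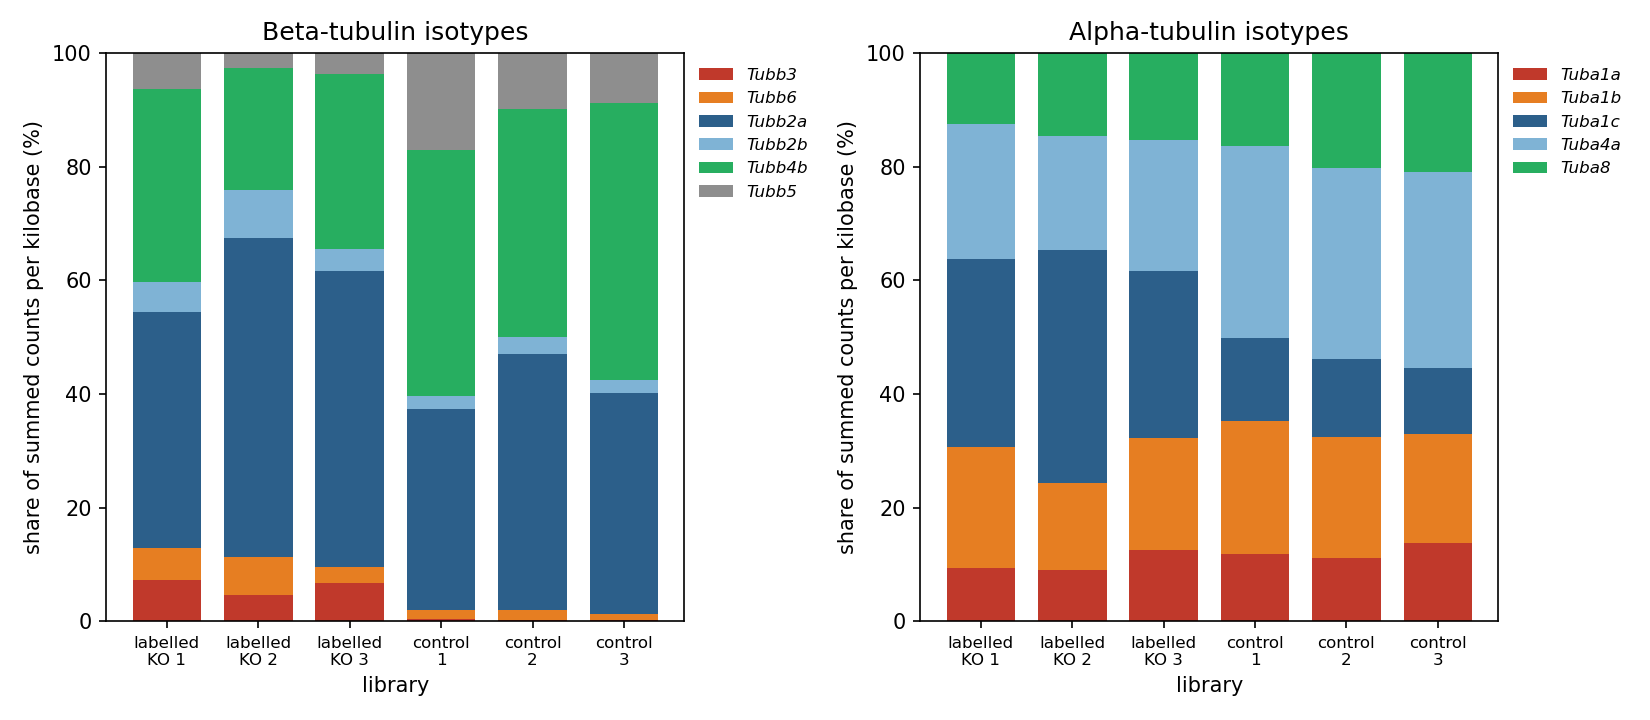
Share (%) of each isotype in the summed normalized counts per kilobase of transcript, for beta-tubulins (left) and alpha-tubulins (right), one bar per library with labelled knockouts left of controls. The red Tubb3 segment holds 4.66 to 7.33% in labelled knockouts and at most 0.303% in controls, and the dark blue Tuba1c segment 29.5 to 40.9% in labelled knockouts and 11.6 to 14.6% in controls.

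The other tubulins of the table were Tuba8, an alpha-tubulin, Tubg1, which nucleates microtubules, and the centriole tubulins Tubd1 and Tube1, and 0 of these 4 passed the threshold (limma), with 1 lower at an unadjusted p under 0.05. With library totals set equal or with no mean-variance trend, Tube1 passed as lower (adjusted p = 0.0446 and 0.0174), against 0.0676 as fitted, where the log2 difference was −1.23 ± 0.46. Tuba8 averaged 1569 ± 357 normalized counts in labelled knockouts and 1498 ± 293 in controls.

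The upstream sequence of Tubb3 was searched for motifs of factors active in stressed or pigmented epidermis, because its level differed most. The 250 bases before its start, from RefSeq (GRCm38.p6), lie at chr8:123411303-123411552 on the plus strand, with motif matches in capitals.
Tubb3: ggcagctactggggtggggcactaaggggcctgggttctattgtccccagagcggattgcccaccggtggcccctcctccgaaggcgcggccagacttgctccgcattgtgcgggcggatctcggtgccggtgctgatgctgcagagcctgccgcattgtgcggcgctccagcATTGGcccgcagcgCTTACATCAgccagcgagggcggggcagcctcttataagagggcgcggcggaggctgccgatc
The first match is a reversed CCAAT, found in 33.8% of 32851 promoters of this length. The second begins 63 bases before the start and reads TGATGNAAN on the minus strand, the composite element of the stress factor ATF4, which 3.4% of those promoters hold. Matches to the pigment-cell M-box core CATGTG, AP-1 (TGANTCA), the cyclic AMP element TGACGTCA, the heat shock element and TATAAA were searched on both strands and not found in this window. The 2 matches do not overlap. A match is a stretch of letters and shows no binding.

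Tubb2a, the isotype with the highest mean per kilobase in the labelled knockouts, had a different set of matches in the 250 bases at chr13:34078009-34078258 on the minus strand.
Tubb2a: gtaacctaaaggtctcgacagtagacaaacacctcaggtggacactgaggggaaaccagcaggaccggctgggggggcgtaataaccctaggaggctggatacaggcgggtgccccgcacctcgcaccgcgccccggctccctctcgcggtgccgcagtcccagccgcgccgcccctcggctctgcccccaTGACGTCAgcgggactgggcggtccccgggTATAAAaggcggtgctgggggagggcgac
The capitals are the cyclic AMP element TGACGTCA, which 1.5% of promoters hold, and TATAAA, which 12.4% hold. Of the 10 genes, 8 had an upstream sequence searched. Tubb6 and Tubb2b were not searched, so whether they hold any of these motifs is not known. The ATF4 element was found in Tubb3 alone among the 8 searched, and CCAAT also in Tubb4b, Tubb5, Tuba1a and Tuba1c.

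Tubb3 adjoins Mc1r, the melanocortin receptor of pigment cells, on chromosome 8, and its neighbours were read to see whether the whole stretch differed. Mc1r had 43.9, 17.0 and 23.3 normalized counts in labelled knockouts 1 to 3, against 12.9, 5.40 and 5.72 in controls 1 to 3, a log2 difference of 1.68 ± 0.57 that missed the threshold (limma adjusted p = 0.051, and 0.0198 to 0.0479 with quantile normalization, no trend, the replicate block, a filter at 10 or without labelled knockout 2, against up to 0.153 when another library was left out). Def8 on the same stretch differed by 0.08 ± 0.19 (limma adjusted p = 0.757). Tcf25 rose by 0.62 ± 0.16 (limma adjusted p = 0.0208), a call lost without any single control (adjusted p = 0.0604 to 0.0833), with library totals set equal (0.28, adjusted p = 0.151) and with quantile normalization (0.27, adjusted p = 0.145). Afg3l1, Dbndd1 and Cdk10 did not pass, at −0.17, −0.01 and −0.72.

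Markers of cells that could bring Tubb3 into the sheet were read beside it. None of 12 neuron genes and none of 8 Merkel cell genes on the lists was among the genes analysed here, a table in which the highest library of every gene holds 30 estimated reads or more. Melanocyte genes were all higher, 13 of 13 tested (limma, 13 also without each library in turn), against 17.7% of all genes. Their median log2 difference was 2.26. Their summed level was 5258, 5942 and 3903 normalized counts in labelled knockouts 1 to 3, against 929, 702 and 624 in controls 1 to 3. The pigment enzyme Dct rose by 2.90 ± 0.20, with 1360, 1713 and 1194 normalized counts in labelled knockouts and 201, 202 and 164 in controls (limma adjusted p = 8.04e-05).

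Of the 5 Schwann cell genes tested, 3 were higher (60%, against 17.7% of all genes) and Erbb3 was lower (20%, against 15.9%). One of the 3, Sox10, is also on the melanocyte list. Without control 1 or control 2, 2 were higher and 0 lower. Dermal fibroblast genes were higher for 3 of 5 (60%, against 17.7% of all genes), the collagens Col1a1, Col1a2 and Col3a1. Their summed level with Dcn and Thy1 was 459 to 573 normalized counts in labelled knockouts and 164 to 433 in controls. Dcn made up most of the control sum. Col1a1 averaged 139 ± 53.1 in labelled knockouts and 15.7 ± 14.8 in controls. Dcn and Thy1 did not pass, at −0.75 ± 0.58 and −0.26 ± 0.45. The log2 difference of Tubb3 was 5.69, and the highest of the 13 melanocyte genes was 4.36 ± 0.34, for Tyrp1. The size of a difference does not show which cells carry a transcript. The part of melanocytes or of other cell types in the Tubb3 level was not tested.

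The genes whose profile over the 6 libraries lay nearest to that of Tubb3, by Euclidean distance of log2 values taken from the control mean, were Mthfd2, Samd12, Podxl, Zfp365 and Gapdhs, at 0.57 to 0.89. Mthfd2, a mitochondrial folate enzyme, had 1033, 1308 and 1023 normalized counts in labelled knockouts 1 to 3, against 31.7, 16.8 and 27.8 in controls 1 to 3. Gapdhs, the sperm form of a glycolytic enzyme, had 42.1, 52.7 and 35.0 normalized counts in labelled knockouts, while every control lists it at 0. Nearness here measures how alike the profiles are over 6 libraries and says nothing more.

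The order of the labelled knockouts differed between isotypes, in part by small margins. Tubb6 and Tubb2b were highest in labelled knockout 2, then 1, then 3. The wound keratin Krt6a, named after its values were seen, had the same order. It had 130630, 308022 and 84076 normalized counts in labelled knockouts 1 to 3. A shared order of 3 libraries shows no link between genes. Tubb2a and Tuba1c also peaked in labelled knockout 2, but had their lowest value in labelled knockout 1. Labelled knockouts 1 and 3 lay close for Tubb2b (620 and 591) and for Tuba1c (2663 and 2898), so their order there is uncertain. Labelled knockout 2 was the shallowest library, where 1 read was worth 1.701 normalized counts, and it had the highest sum of normalized counts, 10987666. Its part in these peaks was not tested.

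**Figure D3:**
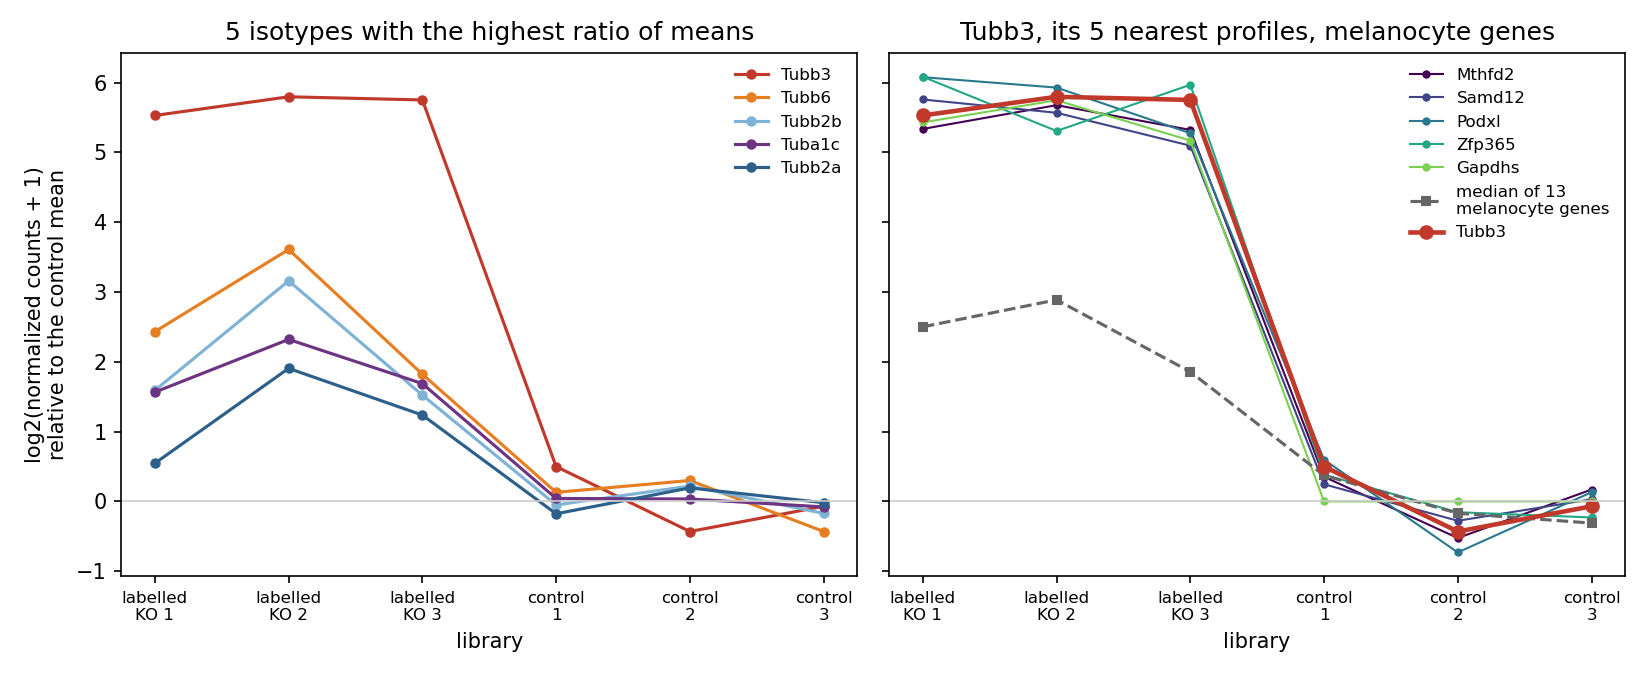
Log2(normalized counts + 1) relative to the control mean for each library (labelled knockouts left of controls), for the 5 isotypes with the highest ratio of means (left) and for Tubb3, its 5 nearest profiles and the median of 13 melanocyte genes (right). Tubb3 varies little across labelled knockouts, Tubb6 and Tubb2b peak in labelled knockout 2, and the melanocyte median lies at 1.86 to 2.89 in labelled knockouts.

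Genes that fold, modify, organise and use tubulin were read from 7 lists, of which 129 of 157 genes were tested. Of these, 26 were higher and 11 lower (limma, adjusted p of 0.05), 28.7% against 33.6% of all genes, with a median log2 difference of 0.10. With library totals set equal, a scaling that shifts the median of all genes to −0.36, the split was 15 higher and 22 lower. With the replicate block it was 33 and 18, and with labelled knockout 1 alone 9 and 6. Leaving out control 1 gave 16 and 6, and leaving out control 3 gave 14 and 7.

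Proteins that stabilise microtubules or ride on their growing ends had 7 of 24 genes higher (29.2%, against 17.7% of all genes) and 3 lower (12.5%, against 15.9%), a higher count that was 7 without each library in turn and 4 with labelled knockout 1 alone. Map1b, a microtubule-associated protein of growing axons, averaged 465 ± 236 normalized counts in labelled knockouts and 19.3 ± 5.82 in controls (SD, n = 3 each), and rose by 4.44 ± 0.40 in log2 units (limma adjusted p = 2.28e-04). The next was Map6, which protects neuronal microtubules from cold, higher by 2.39 ± 0.30 (limma adjusted p = 0.001). The plus-end protein Mapre2 rose by 2.23 ± 0.22, with 1519, 2640 and 1809 in labelled knockouts and 445, 391 and 405 in controls (limma adjusted p = 3.50e-04). Macf1, which links microtubules to actin, rose by 1.81 ± 0.28.

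The folding list was made of the chaperonin and prefoldin subunits, the tubulin cofactors and the factors of tubulin mRNA autoregulation. It had 8 of 25 genes higher (32%, against 17.7% of all genes) and 1 lower (4.0%, against 15.9%). The chaperonin subunits Cct4 and Cct7 rose by 0.73 ± 0.16 and 0.68 ± 0.18, and the prefoldin subunit Pfdn4 by 1.68 ± 0.39 with 35.3, 52.7 and 36.6 normalized counts in labelled knockouts and 10.6, 10.6 and 15.5 in controls (limma adjusted p = 0.0126). The call of Cct7 was lost with library totals set equal (0.34, limma adjusted p = 0.162) and without labelled knockout 2, labelled knockout 3 or any control (0.0508 to 0.0837). That of Cct4 was lost with library totals set equal (0.39, limma adjusted p = 0.107) and without control 3 (0.05). The higher count of the list was 1 with library totals set equal, 4 with no trend, and 0 with labelled knockout 1 alone. It was 1 without control 3, 2 without control 1, and 3 without control 2, labelled knockout 2 or labelled knockout 3.

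The lower member was Ttc5, which in human cells binds newly made tubulin chains by their first residues and starts the decay of their mRNA when free subunits are in excess. It had 89.7, 61.2 and 73.1 normalized counts in labelled knockouts 1 to 3, against 128, 198 and 136 in controls 1 to 3, with a log2 difference of −1.02 ± 0.26 (limma adjusted p = 0.0186, and 0.0808 without control 2). Its partners Scaper and Cnot11 were at −0.29 ± 0.24 and 0.30 ± 0.20 and did not pass. The codons Ttc5 recognises through their residues open every isotype printed here. Tubb3 starts with ATGAGGGAGATC and Tubb2a with ATGCGCGAGATC, and Tuba1c with ATGCGTGAGTGC, so the fourth codon reads isoleucine in the beta and cysteine in the alpha genes.

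Enzymes of the carboxy tail and of lysine acetylation were higher for 4 of 14 (28.6%, against 17.7% of all genes) and lower for 1 (7.14%, against 15.9%). Agtpbp1, which trims glutamates from the tail, had 160, 174 and 122 normalized counts in labelled knockouts 1 to 3, against 40.8, 42.5 and 35.1 in controls 1 to 3, and rose by 1.91 ± 0.24 (limma adjusted p = 0.00103). Among the enzymes that add glutamates, Ttll11 rose by 2.38 ± 0.61 (adjusted p = 0.0184, and 0.0548 without labelled knockout 1) and Ttll7 fell by 1.17 ± 0.23 (limma adjusted p = 0.00614). Hdac6, which removes acetyl groups from alpha-tubulin, rose by 0.86 ± 0.20 (limma adjusted p = 0.0136). That call was lost without control 3 (limma adjusted p = 0.0568) and with library totals set equal (0.52, limma adjusted p = 0.131). Labelled knockout 1 alone gave log2 differences of 0.9 for Hdac6 and 2.61 for Ttll11. The higher count was 2 with library totals set equal and without labelled knockout 1 or control 3, and the lower count 4 with library totals set equal, and 2 without labelled knockout 1 or 3 and with the replicate block.

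**Figure D4:**
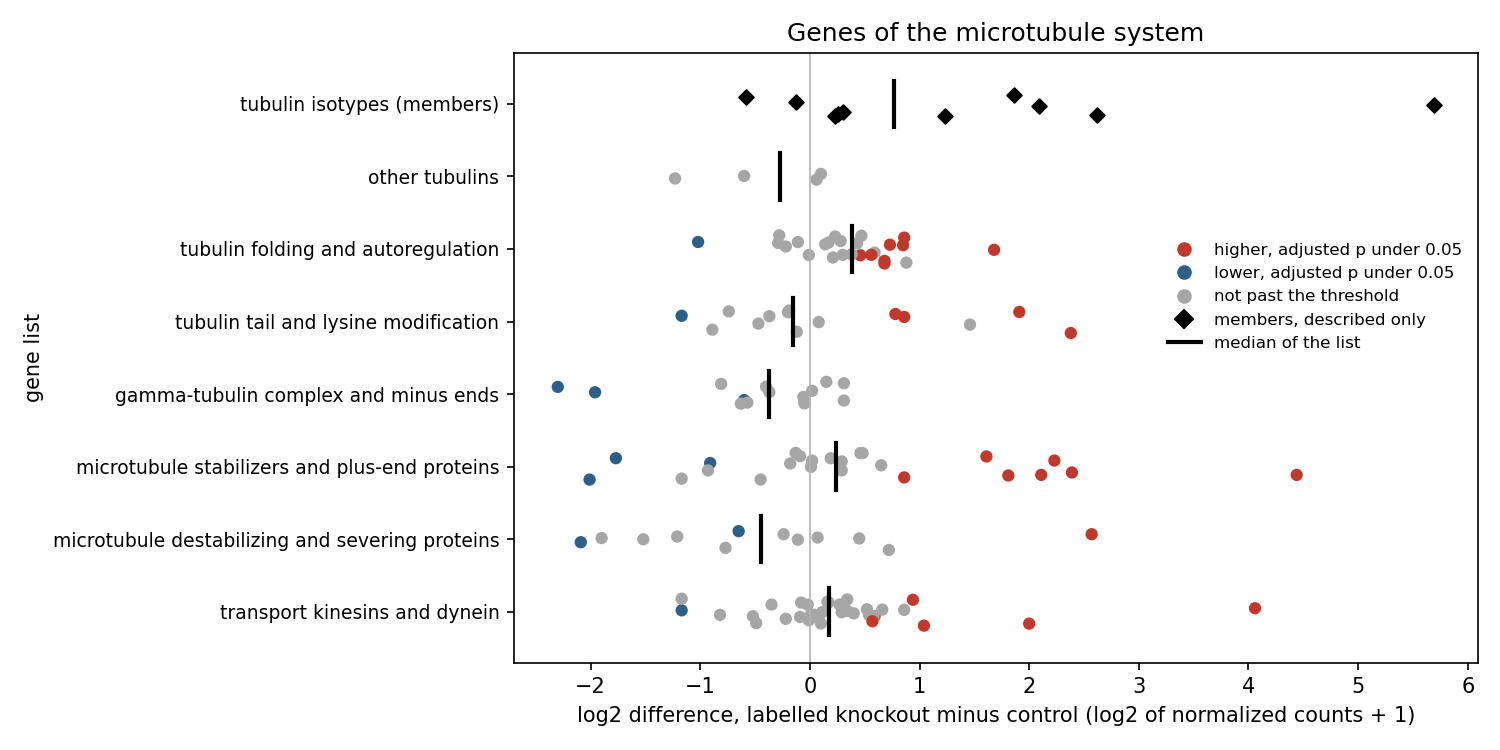
Log2 difference, labelled knockout minus control, of each gene on 7 lists of the microtubule system, red where higher and blue where lower at an adjusted p of 0.05, with black bars at list medians. The 10 tubulin isotypes (diamonds, top row) are shown as a description and span −0.58 to 5.69.

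The list of the gamma-tubulin complex and minus-end proteins, which nucleate or anchor microtubules, had 0 of 15 genes higher, against 17.7% of all genes. None was higher at an unadjusted p under 0.05 either, and 3 were lower (20%, against 15.9% of all genes). Nin, an anchor that moves from the centrosome to the cortex in differentiating keratinocytes, had 256, 73.2 and 116 normalized counts in labelled knockouts 1 to 3, against 822, 647 and 497 in controls 1 to 3, with a log2 difference of −2.30 ± 0.42 (limma adjusted p = 0.00485). The minus-end protein Camsap3 fell by 1.96 ± 0.54 (limma adjusted p = 0.0254), with 318, 165 and 788 normalized counts in labelled knockouts and 1231, 884 and 2253 in controls, and the scaffold Akap9 by 0.60 ± 0.18 (limma adjusted p = 0.0307). The call of Camsap3 was lost without control 1, control 3, labelled knockout 1 or labelled knockout 2 (adjusted p = 0.0614, 0.086, 0.0646 and 0.0635), and that of Akap9 without any control or labelled knockout 2 (0.0633 to 0.104). With no trend both were lost (limma adjusted p = 0.0532 for Camsap3 and 0.0604 for Akap9), and the lower count was 1. The lower count was 6 with library totals set equal, 5 with the replicate block and 1 without control 1, control 3 or labelled knockout 2.

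Of 12 destabilizing and severing proteins, 1 was higher (8.33%, against 17.7% of all genes) and 2 were lower (16.7%, near the 15.9% of all genes). Fignl2, a severing enzyme, had 93.5, 68.1 and 105 normalized counts in labelled knockouts 1 to 3, against 7.55, 15.1 and 22.9 in controls 1 to 3, and rose by 2.57 ± 0.43 (limma adjusted p = 0.00323). Stmn1, which holds tubulin dimers away from the polymer and is abundant in dividing cells, fell by 2.09 ± 0.57 (limma adjusted p = 0.0237), and the severing enzyme Spast by 0.65 ± 0.18 (limma adjusted p = 0.0248). Both falls were lost without any single control (adjusted p = 0.0506 to 0.0893), and that of Spast also without labelled knockout 1 or 2 (0.0599 and 0.0537). The lower count was 0 without control 1 or control 2, 1 without control 3 or labelled knockout 1 or 2, and 4 with the replicate block. The cycling genes had a summed level of 112 to 441 normalized counts in labelled knockouts and 681 to 1934 in controls. Of these genes 4 of 8 were lower (50%, against 15.9% of all genes), and their part in the level of Stmn1 was not tested.

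Motors for transport were higher for 6 of 35 genes (17.1%, near the 17.7% of all genes) and lower for 1 (2.86%, against 15.9%). Kif5c, a kinesin heavy chain known mainly from neurons, had 79.4, 56.1 and 45.5 normalized counts in labelled knockouts 1 to 3, against 3.02, 5.31 and 0.817 in controls 1 to 3, and rose by 4.06 ± 0.60 (limma adjusted p = 0.0019). The dynein regulator Ndel1 rose by 2.0 ± 0.29, with 3742, 7947 and 3932 in labelled knockouts and 1107, 1217 and 1345 in controls (limma adjusted p = 0.0017), and the dynein adaptor Bicd2 by 1.04 ± 0.22 (limma adjusted p = 0.0084). The light chain Dynll2 fell by 1.17 ± 0.26 (limma adjusted p = 0.0103). Labelled knockout 1 alone gave smaller differences, 0.68 for Bicd2 and −0.87 for Dynll2. The higher count was 3 without control 1 or control 3 and 4 without control 2, without labelled knockout 2 and with library totals set equal, and the lower count was 2 without labelled knockout 1 or 2 and with the replicate block, and 3 with library totals set equal.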

How the data were processed

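RNA from 6 epidermis libraries was sequenced in bulk. The authors deposited 1 table of normalized counts, treated here as a non-negative signal, with libraries as rows. The submitters' processing notes name the tools TopHat2 2.1.0 and Partek 9.0.20.0202, and mm39 as the build. How reads were counted and normalized, and whether strand was used, is not given in the sources used here. Of the values up to 20 reads, 80.1 to 83.0% per library were multiples of a fixed step (tolerance 0.02 steps). This falls short of recovering reads, so count models were left aside, and reads were estimated by division by the step.

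Symbols matched 12771 of 12894 gene IDs. The scale is log2(value + 1), which understates differences of genes with low values. The 12872 genes above 1 in at least 3 libraries were fitted with limma 3.58.1 (R 4.3.3) with a mean-variance trend, with Benjamini-Hochberg adjustment across the whole table. The fit was tested on simulated data. The p-values come from limma's moderated t-test, which sets each group difference against the spread between libraries within groups. The main fit holds no term for sex or for pairs of title numbers. The 10 genes, the lists and the tests were chosen with earlier results of these data known. Up to 4 genes of a list are named, in order of adjusted p among those past the threshold; where no gene passed, the 2 most abundant are named. Pseudogenes, Krt6a, Scaper, Cnot11 and Stk16 were named after their values were seen.

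The replicate block pairs each labelled knockout with the control whose title number is adjacent. Deviations from the group mean correlated at 0.37, 0.23 and 0.36 in these pairs, and at −0.28 to −0.07 in pairs that are not adjacent. The pairs were set by title number with no stated litter, and the correlations do not show one. Transcript lengths, coding ends and windows came from GENCODE M21, and promoters from RefSeq, both GRCm38. Alternatives changed the pseudocount, filter, scaling, trend, robust fit, block and libraries.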

Additional observations from a re-analysis of the deposited data

How the results depend on the processing

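Of 16 alternatives, none turned the sign of Tubb3, Tubb6, Tubb2a, Tubb2b, Tuba1c, Tubb5 or Tuba4a. Over them the log2 difference ranged from 5.36 to 5.94 for Tubb3, 2.13 to 3.02 for Tubb6, 0.55 to 1.57 for Tubb2a, 1.56 to 2.38 for Tubb2b, 1.49 to 2.0 for Tuba1c, −0.92 to −0.29 for Tubb5 and −0.57 to −0.05 for Tuba4a. Those of Tubb4b, Tuba1a and Tuba1b took both signs. With library totals set equal, 1440 genes were higher, and of the microtubule genes 15 were higher and 22 lower. Under the replicate block, which pairs libraries by neighbouring title numbers, 18 microtubule genes were lower, and 0 of the 22 genes named from the lists with a call lost it. With labelled knockout 1 only, 1265 genes were higher and 1220 lower, and 9 microtubule genes were higher and 6 lower. Leaving out 1 library at a time gave 1512 to 2342 genes higher and 1121 to 2167 lower, and 14 to 23 microtubule genes higher and 6 to 13 lower. Why these counts move was not tested. For these 22 genes, 39 of 352 results lost the call and 0 changed sign. Tuba8 and Tubg1, which had no call, took both signs. The control level of Tubb3 rests on 12 to 28 estimated reads a library, which limits the precision of its ratio.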
